A study of Taxus mairei and Taxus cuspidata and Taxus x media with 9 samples.

Results

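The unigenes of the photosynthetic electron transport chain and of its light-harvesting antenna were followed across *T. media*, *T. mairei* and *T. cuspidata*. A unigene was taken as a member when its deposited KEGG pathway annotation held ko00195, photosynthesis, or ko00196, antenna proteins. The rule gave 146 of 33895 unigenes, 99 of ko00195 and 47 of ko00196, and no expression value was used for the choice. The 146 unigenes carried 50 KEGG orthologs, here called subunits, and no unigene of these 50 orthologs lay outside both pathways. In total, 36 subunits had several unigenes, up to 8, and 14 had 1 unigene.

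Poly(A) RNA of fresh twigs, wood and needles together, was sequenced in 3 libraries per species from 3-year-old trees kept at 25 °C with 12 h light and 12 h dark. *T. media* is a hybrid that has *T. cuspidata* as a parent. No tree was treated, so the comparisons are *T. media* vs. *T. mairei*, *T. media* vs. *T. cuspidata* and *T. mairei* vs. *T. cuspidata*, and the species differences cannot be told apart from differences between the trees or twigs sampled. Reads of all libraries were assembled together into 1 set of unigenes, so that an assembled sequence may be found in the reads of a single species only.

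In the thylakoid membrane, photosystem II takes electrons from water with the help of the oxygen-evolving proteins. The electrons pass through plastoquinone, the cytochrome b6-f complex and plastocyanin to photosystem I, and from there over ferredoxin to ferredoxin-NADP reductase, while ATP synthase uses the proton gradient that builds up. LHCA proteins gather light for photosystem I and LHCB proteins for photosystem II. The reaction centre proteins are encoded in the plastid, whose transcripts carry few stable poly(A) tails, and the antenna and most small subunits are encoded in the nucleus.

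Depth was similar among the species. The 3 *T. media* libraries held 32783233 to 41647131 counted reads, the 2 *T. mairei* libraries deposited with counts 37887549 and 43480998, and the 3 *T. cuspidata* libraries 39192663 to 44821305. *T. mairei* replicate 3 was deposited without counts and enters the levels but not the count test. Levels are given in TPM, reads per length of the unigene with the sum of each library set to the same value. Fold changes are on the log2 scale and come from edgeR's quasi-likelihood test on the counts of 8 libraries. A unigene or subunit was called higher or lower when its log2 fold change exceeded 1 in size and its p, adjusted by Benjamini-Hochberg over the whole table, stayed below 0.05. The methods call the libraries biological replicates and name several independent trees per species, but not which trees went into which library, so the p values measure the spread between these libraries, of which a part may be technical.

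*T. media* replicate 1 stood apart in the members. Of the 146 unigenes, 44 reached 5 TPM in this library and stayed below 1 TPM in each of the other 8. They made up 30.1% of the members against 0.440% of all unigenes, where 149 of 33895 had this pattern. In this library, the 44 unigenes had 5.27 to 71.5 TPM, belonged to 29 subunits of all 8 role groups and made up 1.78% of the summed TPM of the members. In *T. media* replicate 2, 1 member had this pattern, and none had it in the other 7 libraries. Replicate 1 also had the lowest summed level of *T. media*, below both other libraries for 36 of the 37 nuclear-coded subunits, with a median ratio to their mean of 0.563. What sets this library apart was not tested, and several counts that rest on it are given with and without it.

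The 146 members summed to 28976, 58099 and 50906 TPM in *T. media*, 8935, 6534 and 10690 TPM in *T. mairei* and 75222, 89910 and 87042 TPM in *T. cuspidata*. Thus, they held 2.90 to 5.81% of all TPM in *T. media*, 0.653 to 1.07% in *T. mairei* and 7.52 to 8.99% in *T. cuspidata*. The libraries of the 3 species did not overlap, and the mean was 5.27-fold higher in *T. media* than in *T. mairei*, 0.547-fold in *T. media* relative to *T. cuspidata* and 0.104-fold in *T. mairei* relative to *T. cuspidata*. The size depended on the scale: with TMM factors, the log2 ratio of all members was 1.69 between *T. media* and *T. mairei*. Between *T. mairei* and *T. cuspidata* it was −2.63 with TMM factors and −2.60 in RPKM. Each of these lay closer to 0 than in TPM. From twigs as a whole, fewer green cells and less of these transcripts per cell cannot be told apart.

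The order *T. mairei*, *T. media*, *T. cuspidata* from low to high was found in each role group. Photosystem I without its antenna summed to 7239, 14355 and 13153 TPM in *T. media*, 1746, 1269 and 2102 TPM in *T. mairei* and 20011, 24060 and 23678 TPM in *T. cuspidata*. The antenna of photosystem II, the largest group by TPM, had 8003, 16571 and 15749 TPM in *T. media*, 2567, 1823 and 3321 TPM in *T. mairei* and 23431, 27608 and 26328 TPM in *T. cuspidata*. In both groups, every library of a species lay apart from every library of the others. The ratio of the means of *T. media* and *T. cuspidata* was lowest for the electron carriers, at 0.289, and highest for the antenna of photosystem I, at 0.693. Between *T. mairei* and *T. cuspidata*, the ratio ranged from 0.0755 for photosystem I to 0.159 for the electron carriers and the antenna of photosystem I.

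**Figure D1:**
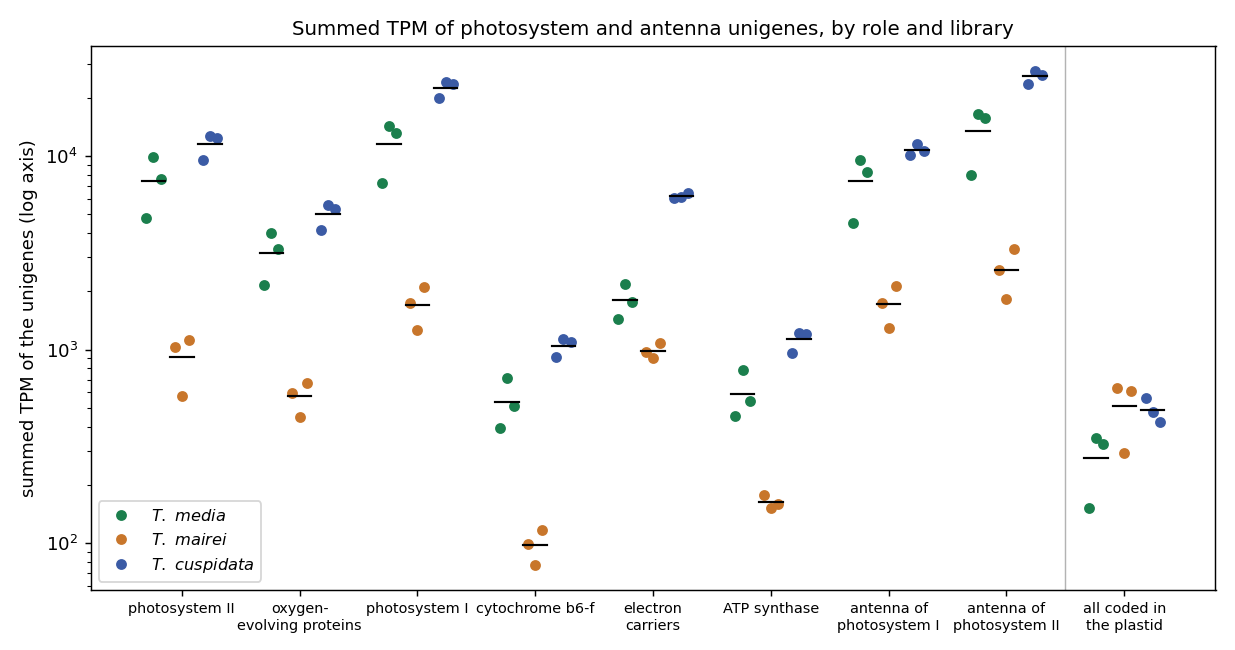
Summed TPM (log axis) of the member unigenes of each role group, and of all plastid-coded members at the right, in every library of *T. media* (green), *T. mairei* (orange) and *T. cuspidata* (blue), with black bars at the means of 3 libraries. In the 8 role groups all *T. mairei* libraries lie below all *T. media* and *T. cuspidata* libraries, and the plastid-coded sum, at 151.8 to 351.1 TPM in *T. media*, 290.7 to 630.8 TPM in *T. mairei* and 421.0 to 558.8 TPM in *T. cuspidata*, overlaps between the species except for *T. media* below *T. cuspidata*. The plastid-coded sum holds 18 unigenes, 1 of them the unigene named atpF, whose ortholog is otherwise held by nuclear-coded unigenes.

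The unigene by unigene comparison gave calls in both directions. Of the 146 members, 99 passed the filter on low counts, and the 47 others included the 44 unigenes of *T. media* replicate 1. In *T. media* vs. *T. mairei*, 47 members were higher and 15 lower in *T. media*, that is 47.5% and 15.2% of the 99, where 20.8% and 23.5% of all unigenes tested were called in these directions and 44.3% in either. Against *T. cuspidata*, 11 members were higher and 32 lower in *T. media*, or 11.1% and 32.3%, with 15.7% and 10.1% of all unigenes called in these directions and 25.8% in either. Without *T. media* replicate 1 the 32 became 21. In *T. mairei* vs. *T. cuspidata*, 23 members were higher and 53 lower in *T. mairei*, or 23.2% and 53.5%, against 27.8% and 21.5% of all unigenes and 49.3% in either direction. A unigene that passes the filter only through the species where it is high has to differ, so these counts describe the list and do not stand as support.

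Summing the counts of all unigenes of a subunit before the test removed most calls of opposite direction. All 50 subunits passed the filter. The 3 comparisons share libraries and are not independent of each other. In *T. mairei* vs. *T. cuspidata*, no sum was higher and 39 were lower in *T. mairei*, where 26.7% and 21.2% of all ortholog sums and single unigenes were called in these directions and 47.9% in either. Of these sums, 4 had a log2 fold change above 0, and 0 of the 4 had an unadjusted p below 0.05 in edgeR or were called by DESeq2 or limma. The count of 0 higher sums was 1 when the reads recovered for *T. mairei* replicate 3 were added. The 37 nuclear-coded subunits were all among the 39 lower ones. In *T. media* vs. *T. mairei*, 31 sums were higher and 1 lower in *T. media* (background 20.3% and 22.4%, in either direction 42.7%), and the 31 were all nuclear-coded. Between *T. media* and *T. cuspidata*, no sum was higher and 21 were lower in *T. media* (background 15.2% and 9.76%, in either direction 25%). All 50 log2 fold changes of this comparison were below 0, or 46 of 50 without *T. media* replicate 1, and DESeq2 and limma also called 0 sums higher in *T. media*. Without *T. media* replicate 1, 9 sums remained lower, psbS, psbY, psb27, psb28, psaL, petE, petF, LHCB2 and LHCB5, all of them among the 21. The median log2 fold change of the 50 sums was 1.98 in *T. media* vs. *T. mairei* and −0.97 in *T. media* vs. *T. cuspidata*, and that of the 37 nuclear-coded sums was −3.35 in *T. mairei* vs. *T. cuspidata*, with a median of 0.03 in each over the whole table. With *T. media* replicate 1 left out, the medians of the 50 sums were 2.27 and −0.76. In that setting, 33 sums were higher in *T. media* than in *T. mairei*.

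Of the 23 unigenes higher in *T. mairei* than in *T. cuspidata*, 22 belonged to a subunit whose sum was lower in *T. mairei*, and the subunit of the remaining 1 was not called. Of the 15 unigenes lower in *T. media* than in *T. mairei*, 9 belonged to a subunit whose sum was higher in *T. media* and 1 to a subunit whose sum was lower. Of the 11 unigenes higher in *T. media* than in *T. cuspidata*, 6 belonged to a subunit whose sum was lower in *T. media*. All 53 unigenes lower in *T. mairei* than in *T. cuspidata* had a sum called in the same direction. Of the 47 unigenes higher in *T. media* than in *T. mairei*, 41 had a sum called alike, and of the 32 lower in *T. media* than in *T. cuspidata*, 25 did, with 0 opposite in either. Over the 3 comparisons, 120 of 181 unigene calls had a sum called in the same direction, 37 in the opposite direction and 24 a sum that was not called. All 37 nuclear-coded sums were lower in *T. mairei* than in *T. cuspidata*, so a called nuclear-coded unigene could only fall in a lower sum there. No nuclear-coded sum was higher in *T. media* than in *T. cuspidata* or lower in *T. media* than in *T. mairei*. These tallies thus largely follow from the direction of the sums and do not stand as support.

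**Figure D2:**
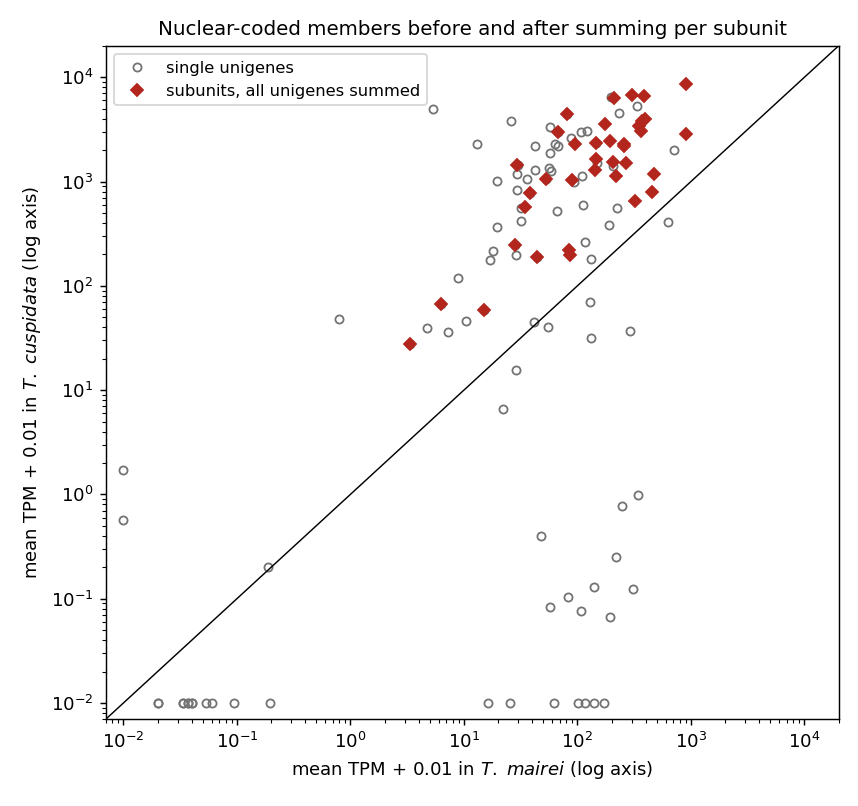
Mean TPM plus 0.01 (log axes) in *T. mairei* (x) and *T. cuspidata* (y) of each nuclear-coded member unigene with reads in either species (grey circles) and of each nuclear-coded subunit with its unigenes summed (red diamonds), with the line of equal levels. Single unigenes lie on both sides of the line, including those listed at 0 in *T. cuspidata* along the lower edge, and all 37 sums lie above it.

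**Figure D3:**
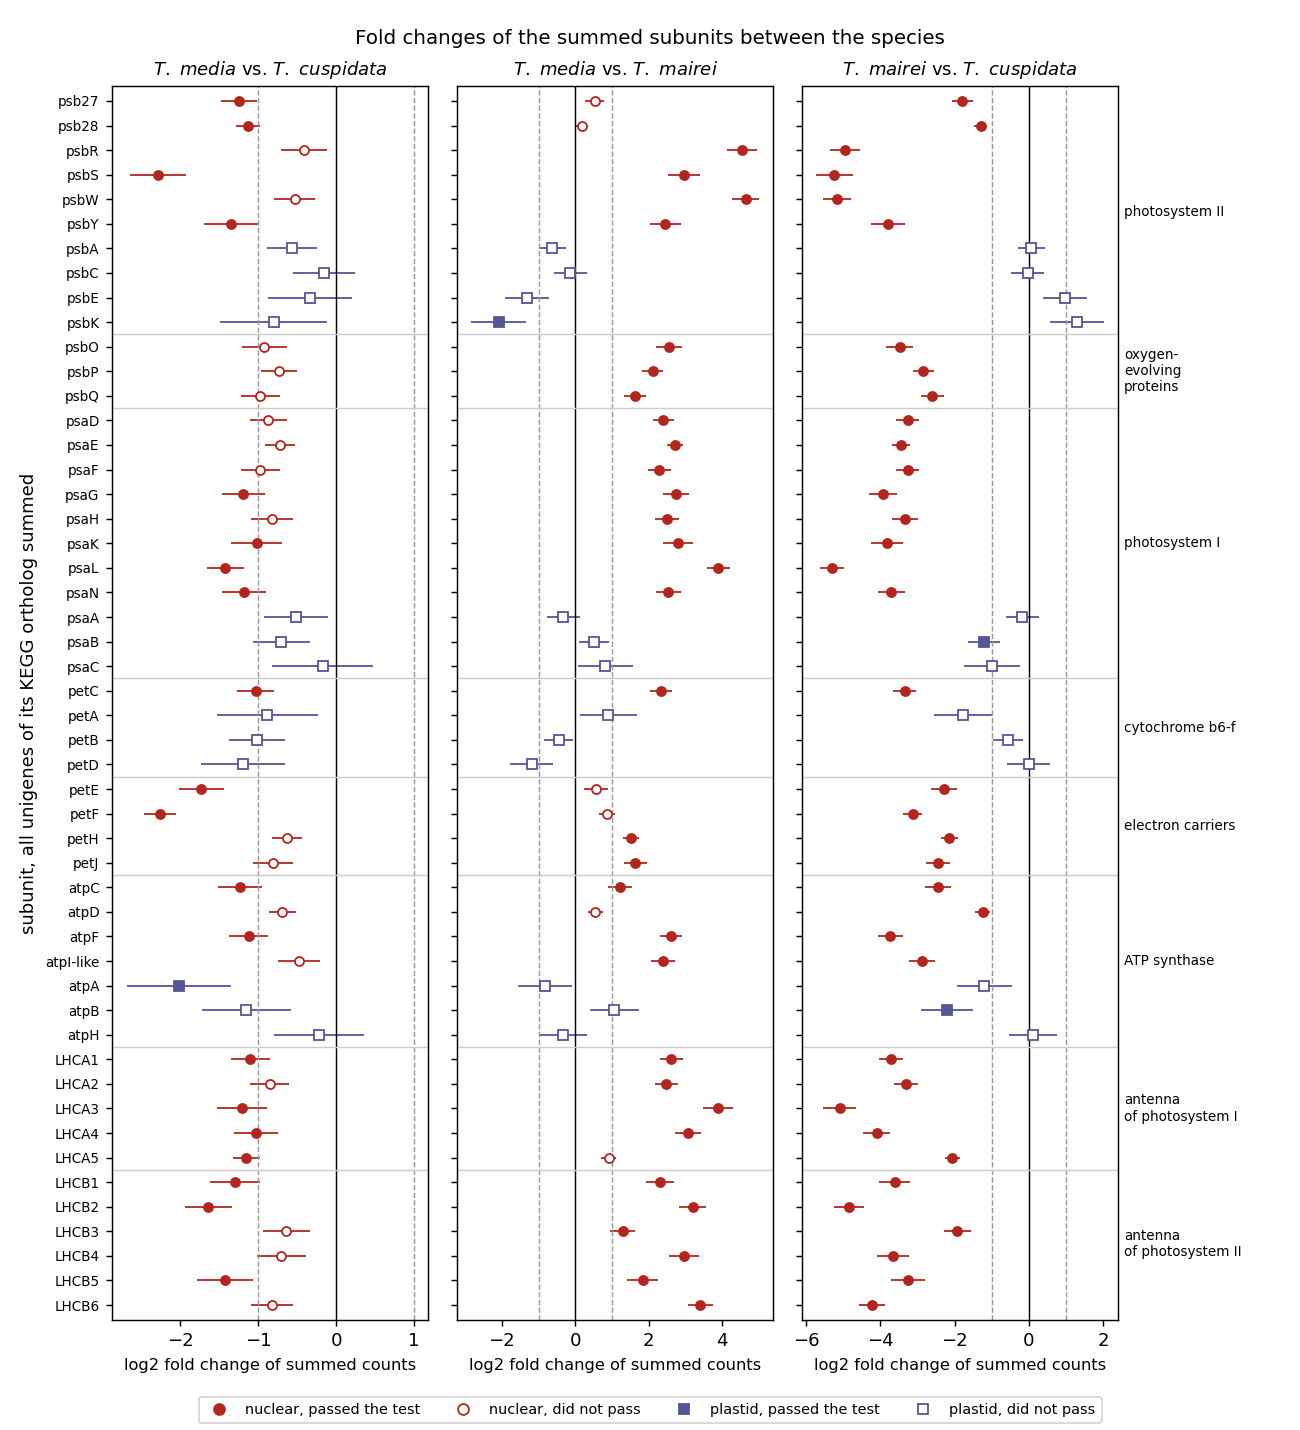
Log2 fold change of the summed counts of each of the 50 subunits in the 3 comparisons, with bars of 1 SE, by role group. Filled symbols passed the test, circles are nuclear-coded and squares plastid-coded, and dashed lines mark a log2 fold change of 1 in either direction; the 37 nuclear-coded sums are all filled and below 0 in *T. mairei* vs. *T. cuspidata*, while most plastid-coded sums are open.

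In photosystem I, the 8 nuclear-coded subunits were higher in *T. media* than in *T. mairei* and lower in *T. mairei* than in *T. cuspidata*. psaL, which in land plants takes part in docking of the mobile antenna, had 1296, 2130 and 1746 TPM in *T. media*, 81.9, 60.3 and 99.1 TPM in *T. mairei* and 3530, 4905 and 4844 TPM in *T. cuspidata*. Its log2 fold change was 3.90 ± 0.31 (SE) for *T. media* vs. *T. mairei*, −1.42 ± 0.24 for *T. media* vs. *T. cuspidata* and −5.31 ± 0.33 between *T. mairei* and *T. cuspidata*, with adjusted p values of 3.3e-05, 0.0024 and 8.1e-06 in edgeR's test. The mean level of psaL was 55.0-fold lower in *T. mairei* than in *T. cuspidata*, the widest gap of any subunit. psaN, a lumenal subunit at the plastocyanin side, had 1324, 3519 and 3438 TPM in *T. media*, 398, 329 and 444 TPM in *T. mairei* and 6391, 6943 and 6453 TPM in *T. cuspidata*. psaG, which lies next to the LHCA belt, showed the same order with 315, 617 and 501 TPM in *T. media*, 54.4, 33.3 and 70.2 TPM in *T. mairei* and 923, 1142 and 1072 TPM in *T. cuspidata*. The species did not overlap in any of these 3 subunits. Relative to *T. cuspidata*, psaL, psaN, psaG and psaK were called lower in *T. media*, and psaD, psaE, psaF and psaH had log2 fold changes between −0.97 and −0.72, short of the threshold. Of those called, only psaL stayed so without *T. media* replicate 1. psaK was just past the threshold at −1.02 ± 0.33, and its TPM overlapped between *T. media* and *T. cuspidata*.

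psaH, a subunit needed for state transitions in *Arabidopsis*, shows how the unigene that held most reads of a subunit differed between species. Its unigene comp15684_c1 had 494, 951 and 794 TPM in *T. media*, 215, 158 and 280 TPM in *T. mairei* and 0.330, 0.200 and 0.190 TPM in *T. cuspidata*. comp15684_c0, the other unigene of the same assembled component, had 520, 1114 and 934 TPM in *T. media*, 38.0, 24.3 and 63.8 TPM in *T. mairei* and 1953, 2307 and 2344 TPM in *T. cuspidata*. The remaining unigene, comp235634_c0, had 5.62 TPM in *T. media* replicate 1 and stayed below 0.1 TPM elsewhere. In sum, psaH had 1020, 2065 and 1728 TPM in *T. media*, 253, 182 and 343 TPM in *T. mairei* and 1953, 2307 and 2345 TPM in *T. cuspidata*. *T. cuspidata* thus had the highest mean of the subunit while it lacked comp15684_c1, although its range overlapped that of *T. media*. The share of comp15684_c1 in the psaH sum was 46.5% in *T. media*, 83.8% in *T. mairei* and 0.0109% in *T. cuspidata*. The summed log2 fold change was 2.51 ± 0.33 for *T. media* vs. *T. mairei*, −0.82 ± 0.27 for *T. media* vs. *T. cuspidata* and −3.33 ± 0.35 for *T. mairei* vs. *T. cuspidata*.

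The leading unigene also differed between species in the subunits around the stromal and lumenal docking sites. psaD and psaE bind ferredoxin and psaF binds plastocyanin. comp7449_c0 of psaD had 203, 132 and 240 TPM in *T. mairei*, and at most 0.200 TPM in *T. media* and 0.0900 TPM in *T. cuspidata*. It held 75.1% of the psaD sum in *T. mairei*, whereas comp24829_c0 held 99.6% in *T. media* and all of it in *T. cuspidata* after rounding. For psaF, comp6673_c0 had 246, 159 and 331 TPM in *T. mairei* and at most 0.440 TPM in *T. media* and 1.33 TPM in *T. cuspidata*, where comp15704_c0 had 1116, 1836 and 1876 TPM and 2686, 3255 and 3220 TPM. For psaE, comp10220_c0 had 122, 318 and 294 TPM in *T. media*, 105, 79.6 and 118 TPM in *T. mairei* and none in *T. cuspidata*. Its partner comp20673_c0 had 591, 829 and 705 TPM in *T. media*, 42.2, 32.8 and 50.9 TPM in *T. mairei* and 1137, 1331 and 1377 TPM in *T. cuspidata*. The sums of psaD, psaE and psaF were nevertheless lower in *T. mairei* than in *T. cuspidata*, with log2 fold changes of −3.27 ± 0.30, −3.44 ± 0.24 and −3.27 ± 0.32.

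In photosystem II, the nuclear-coded small subunits differed widely in the size of their difference. psbS, the sensor of lumen acidity in non-photochemical quenching, had 210, 493 and 232 TPM in *T. media*, 27.6, 20.8 and 39.2 TPM in *T. mairei* and 1126, 1575 and 1600.81 TPM in *T. cuspidata*. It had the lowest log2 fold change of all sums in *T. media* vs. *T. cuspidata*, −2.28 ± 0.36 with adjusted p = 0.0018 in edgeR's test, and reached −5.24 ± 0.49 in *T. mairei* vs. *T. cuspidata*. psb28, an assembly factor, lay at 24.6, 34.5 and 24.9 TPM in *T. media*, between 14.35 and 15.8 TPM in *T. mairei* and 59.5, 57.0 and 59.0 TPM in *T. cuspidata*. For psb28 and psb27, a factor of photosystem II repair, *T. media* and *T. mairei* differed by log2 fold changes of only 0.18 ± 0.17 and 0.53 ± 0.25, neither of which passed the test, although all *T. media* libraries lay above all *T. mairei* libraries.

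psbR and psbW, 2 small subunits, carried high levels through different unigenes. For psbR, which stabilises the binding of the oxygen-evolving proteins in *Arabidopsis*, comp19016_c0 had 2852, 5712 and 4296 TPM in *T. media*, 5.74, 3.56 and 6.77 TPM in *T. mairei* and 3958, 5506 and 5361 TPM in *T. cuspidata*. comp39752_c0 had 247, 714 and 578 TPM in *T. media*, 199, 125 and 288 TPM in *T. mairei* and 1177, 1528 and 1503 TPM in *T. cuspidata*. The gap of comp19016_c0 between *T. mairei* and *T. cuspidata* was thus far wider than that of comp39752_c0, with log2 fold changes of −9.44 and −2.50, and the sum fell between them at −4.95 ± 0.41. For psbW, comp10329_c0 had 1076, 2136 and 1720 TPM in *T. media*, 12.3, 9.97 and 16.6 TPM in *T. mairei* and 1958, 2507 and 2407 TPM in *T. cuspidata*, while comp16051_c0 had 86.6, 63.3 and 96.0 TPM in *T. mairei* and at most 0.0700 TPM in *T. media* and 0.140 TPM in *T. cuspidata*. In sum, psbW was 24.1-fold lower in *T. mairei* than in *T. cuspidata*. Between *T. media* and *T. cuspidata*, psbR and psbW did not pass the test, with log2 fold changes of −0.41 ± 0.29 and −0.53 ± 0.26.

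The oxygen-evolving proteins psbO, psbP and psbQ shield the manganese cluster on the lumenal side. psbO, carried almost entirely by comp24412_c0, summed to 827, 1713 and 1349 TPM in *T. media*, 152, 118 and 171 TPM in *T. mairei* and 1821, 2642 and 2606 TPM in *T. cuspidata*. All 3 proteins were higher in *T. media* than in *T. mairei*, with log2 fold changes of 2.56 ± 0.35, 2.11 ± 0.28 and 1.62 ± 0.30, and lower in *T. mairei* than in *T. cuspidata*, with −3.48 ± 0.37, −2.84 ± 0.29 and −2.60 ± 0.31. Between *T. media* and *T. cuspidata*, they lay between −0.97 and −0.73 and were not called. Within psbQ, comp10731_c0 had 175, 279 and 224 TPM in *T. media* and 122, 92.4 and 110 TPM in *T. mairei*, against at most 0.200 TPM in *T. cuspidata*. Within psbP, comp10745_c0 had 180, 345 and 329 TPM in *T. media*, 127, 97.4 and 171 TPM in *T. mairei* and 94.2, 0.420 and 0.150 TPM in *T. cuspidata*. This unigene was therefore uneven within *T. cuspidata*, where replicate 1 held nearly all of its reads. It led the psbP sum in *T. mairei* with 63.5%, while comp26910_c0 led in *T. media* with 67.9% and in *T. cuspidata* with 87.3%.

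Between the photosystems, the Rieske protein petC of the cytochrome b6-f complex had 385, 704 and 499 TPM in *T. media*, 89.5, 72.1 and 105 TPM in *T. mairei* and 896, 1119 and 1079 TPM in *T. cuspidata*. Its unigene comp127732_c0 had 37.0, 30.4 and 28.0 TPM in *T. media*, 45.6, 35.6 and 60.6 TPM in *T. mairei* and 1.18, 0 and 0 TPM in *T. cuspidata*. In *T. mairei* it held 53.1% of petC, against 84.1% and 99.3% for comp20597_c0 in *T. media* and *T. cuspidata*. petC was called in all 3 comparisons, with a log2 fold change of −1.03 ± 0.24 in *T. media* vs. *T. cuspidata*, just past the threshold.

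Of the 4 electron carriers, all 4 were lower in *T. mairei* than in *T. cuspidata*, and 2, ferredoxin and plastocyanin, were also lower in *T. media* than in *T. cuspidata*. Ferredoxin, petF, summed to 579, 932 and 712 TPM in *T. media*, 363, 373 and 451 TPM in *T. mairei* and 4032, 3717 and 4298 TPM in *T. cuspidata*. The log2 fold change was 0.87 ± 0.22 for *T. media* vs. *T. mairei*, which did not pass, −2.26 ± 0.20 for *T. media* vs. *T. cuspidata* (adjusted p = 0.00012 in edgeR's test) and −3.13 ± 0.25 for *T. mairei* vs. *T. cuspidata*. Plastocyanin, petE, had 284, 603 and 544 TPM in *T. media*, 298, 224 and 275 TPM in *T. mairei* and 1276, 1676 and 1622 TPM in *T. cuspidata*. *T. media* and *T. mairei* overlapped in plastocyanin, and the log2 fold change of 0.56 ± 0.33 between them did not pass the test. In *T. mairei*, the plastocyanin unigene comp44881_c0 had 135, 100 and 116 TPM, against 1.62, 2.76 and 3.89 TPM in *T. media* and none in *T. cuspidata*.

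A ferredoxin unigene was also missing in *T. media*. comp24867_c0, named FD2 after a leaf ferredoxin, had no read in *T. media*, 84.4, 55.8 and 142 TPM in *T. mairei* and 1013, 884 and 1115 TPM in *T. cuspidata*. comp24867_c1 of the same component had 291, 628 and 443 TPM in *T. media*, 76.2, 62.4 and 124 TPM in *T. mairei* and 2670, 2425 and 2735 TPM in *T. cuspidata*. The ferredoxin sum of *T. media* was 0.184 of that of *T. cuspidata*, so that the other unigenes did not make up for comp24867_c0 there, whereas against *T. mairei*, which had the unigene at a mean of 93.9 TPM, the *T. media* sum was 1.87 times as high. Without comp24867_c0, *T. media* still lay below *T. cuspidata* in comp24867_c1, with a log2 fold change of −2.60. comp26466_c0, named FDX3 after a root ferredoxin of maize, went the other way with 113, 96.6 and 93.9 TPM in *T. media*, 115, 164 and 107 TPM in *T. mairei* and 51.0, 70.1 and 87.8 TPM in *T. cuspidata*. Its log2 fold change was −1.22 for *T. media* vs. *T. mairei*, 0.40 for *T. media* vs. *T. cuspidata*, which did not pass, and 1.62 for *T. mairei* vs. *T. cuspidata*. Another unigene of that name, comp20578_c0, was added after its values were seen and ran with the ferredoxin sum, at 54.4, 95.9 and 75.7 TPM in *T. media*, 19.2, 14.6 and 20.4 TPM in *T. mairei* and 183, 225 and 241 TPM in *T. cuspidata*. comp26466_c1, of the same component as comp26466_c0 and also named FDX3, held 7.76% of ferredoxin TPM in *T. media*, 14.0% in *T. mairei* and 1.01% in *T. cuspidata*. The unigenes of this name thus did not all run together. comp26466_c0 held 13.7% of ferredoxin TPM in *T. media*, 32.4% in *T. mairei* and 1.73% in *T. cuspidata*.

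Ferredoxin-NADP reductase, petH, differed less, with 559, 640 and 488 TPM in *T. media*, 312, 305 and 348 TPM in *T. mairei* and 734, 696 and 514 TPM in *T. cuspidata*. Its log2 fold change of the summed counts was 1.51 ± 0.22 for *T. media* vs. *T. mairei*, −0.63 ± 0.19 for *T. media* vs. *T. cuspidata* and −2.14 ± 0.23 for *T. mairei* vs. *T. cuspidata*, and the middle value did not reach the threshold. The 213-base unigene comp154124_c0 had 138, 118 and 166 TPM in *T. mairei* and no read in the other species. It held 43.7% of petH TPM in *T. mairei*, where the TPM of so short a unigene rest on fewer reads than the same TPM of a longer one. petJ, a c-type cytochrome, was low in each species, at 16.3, 16.6 and 16.8 TPM in *T. media*, 3.91, 2.53 and 3.50 TPM in *T. mairei* and 17.9, 34.1 and 30.7 TPM in *T. cuspidata*.

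Among the nuclear-coded subunits of ATP synthase, atpC, the central gamma subunit, had 72.9, 149 and 115 TPM in *T. media*, 29.5, 27.9 and 26.8 TPM in *T. mairei* and 210, 264 and 268 TPM in *T. cuspidata*. The atpF ortholog was mainly comp20642_c0, which is named ATPG and was taken as nuclear-coded. Its sum had 214, 363 and 243 TPM in *T. media*, 34.0, 22.1 and 46.5 TPM in *T. mairei* and 460, 626 and 617 TPM in *T. cuspidata*. The sums of atpC and of the atpF ortholog were called in all 3 comparisons. The unigene named atpF itself, comp107469_c0, was taken as plastid-coded and passed no comparison. It averaged 3.22 TPM in *T. media*, 2.66 TPM in *T. mairei* and 7.22 TPM in *T. cuspidata*. On counts, the delta subunit, atpD, differed least of the nuclear-coded subunits between *T. mairei* and *T. cuspidata*, with a log2 fold change of −1.24 ± 0.20. In mean TPM, LHCB3 differed least, with 0.57 of the *T. cuspidata* level in *T. mairei* against 0.378 for atpD. The unigenes of atpD behaved differently. comp23282_c0 lay at 48.4, 52.7 and 45.8 TPM in *T. media*, 43.6, 46.7 and 34.0 TPM in *T. mairei* and 42.9, 48.0 and 44.2 TPM in *T. cuspidata*, and passed no comparison. comp23591_c0 had 73.3, 131 and 89.7 TPM in *T. media*, 18.7, 16.4 and 15.2 TPM in *T. mairei* and 158, 194 and 178 TPM in *T. cuspidata*. comp64481_c0 had 34.6, 27.6 and 14.7 TPM in *T. mairei* and no read in the other species.

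The antenna of photosystem I is a belt of LHCA1 to LHCA4, with LHCA5 as a minor protein. LHCA3 had 750, 1722 and 1562 TPM in *T. media*, 67.1, 44.3 and 91.7 TPM in *T. mairei* and 2887, 3235 and 2871 TPM in *T. cuspidata*. LHCA1, led by comp44854_c0 in each species, had 1049, 2095 and 1912 TPM in *T. media*, 172, 130 and 221 TPM in *T. mairei* and 3492, 3560 and 3530 TPM in *T. cuspidata*. LHCA2 differed less in TPM, with 1618, 3537 and 3033 TPM in *T. media*, 953, 728 and 1051 TPM in *T. mairei* and 2543, 3226 and 2791 TPM in *T. cuspidata*, and was led by comp58297_c0 in *T. media*, comp10776_c0 in *T. mairei* and comp20661_c0 in *T. cuspidata*. LHCA1 to LHCA5 were lower in *T. mairei* than in *T. cuspidata*, with log2 fold changes between −5.10 ± 0.44 for LHCA3 and −2.06 ± 0.21 for LHCA5. In mean TPM, *T. mairei* had 0.0494, 0.319, 0.0226, 0.405 and 0.429 of the *T. cuspidata* level for LHCA1 to LHCA5. Summed counts are not corrected for the unequal lengths of the unigenes, so the size of a difference depends on the scale. For LHCA4, the log2 fold change on counts was −4.10 ± 0.37. LHCA1 to LHCA4 were higher in *T. media* than in *T. mairei*, and LHCA5, at 0.91 ± 0.20, stayed below the threshold.

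For LHCA4, the direction between *T. media* and *T. cuspidata* depended on the scale. The sum had 995, 2047 and 1640 TPM in *T. media*, 464, 297 and 671 TPM in *T. mairei* and 1054, 1257 and 1222 TPM in *T. cuspidata*, so that *T. media* had the highest mean. On counts, LHCA4 had a log2 fold change of −1.03 ± 0.28 between *T. media* and *T. cuspidata*, and of 0.35 on log2(TPM + 1). In *T. media*, 64.9% of the LHCA4 TPM came from comp25384_c0, a unigene of 246 bases that had 642, 1345 and 1053 TPM in *T. media*, 312, 199 and 415 TPM in *T. mairei* and 0, 0.340 and 0 TPM in *T. cuspidata*. In *T. cuspidata*, comp25384_c1, of 1184 bases, held the subunit with 1053, 1257 and 1222 TPM, against 335, 703 and 586 TPM in *T. media* and 27.8, 20.2 and 40.5 TPM in *T. mairei*. LHCA4 was the only nuclear-coded subunit for which the sign of the TPM ratio and of the count fold change differed in any comparison. Of all members, 29 had an effective length below 100 bases, and their TPM weigh more in a sum than their reads.

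The antenna of photosystem II consists of the major trimer proteins LHCB1 to LHCB3 and the minor proteins LHCB4 to LHCB6. LHCB1 had the highest sum of all subunits in *T. cuspidata*, with 2007, 4496 and 4087 TPM in *T. media*, 887, 614 and 1216 TPM in *T. mairei* and 7201, 9516 and 8963 TPM in *T. cuspidata*. Its log2 fold change was 2.32 ± 0.38 for *T. media* vs. *T. mairei*, −1.30 ± 0.32 for *T. media* vs. *T. cuspidata* and −3.62 ± 0.41 for *T. mairei* vs. *T. cuspidata*. comp25139_c0 led LHCB1 in *T. media* with 78.4% and in *T. cuspidata* with 76.3%, and comp16551_c0 led in *T. mairei* with 78.3%. LHCB1 is a family of near-identical genes, and how the counting divided reads among their unigenes is not given in the sources used here, so the single unigenes are less certain than the sum. LHCB2 had 1327, 2596 and 2427 TPM in *T. media*, 375, 270 and 392 TPM in *T. mairei* and 2864, 3839 and 3555 TPM in *T. cuspidata*. LHCB6 had 2563, 4656 and 4706 TPM in *T. media*, 272, 200 and 429 TPM in *T. mairei* and 6334, 7119 and 6721 TPM in *T. cuspidata*. For both, the species did not overlap.

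LHCB5, a minor antenna protein between the trimers and the core, was held by another unigene in *T. mairei* than in both other species. comp17420_c0 had 711, 1904 and 1807 TPM in *T. media*, 28.8, 16.5 and 32.8 TPM in *T. mairei* and 3883, 3905 and 3712 TPM in *T. cuspidata*. comp14838_c0 had 8.34, 12.6 and 8.06 TPM in *T. media*, 358, 230 and 446 TPM in *T. mairei* and 0.330, 1.13 and 1.49 TPM in *T. cuspidata*. In *T. mairei* vs. *T. cuspidata*, the log2 fold change was −6.79 for comp17420_c0 and 8.82 for comp14838_c0, while that of the LHCB5 sum was −3.26 ± 0.45. LHCB3 differed least, with 503, 743 and 761 TPM in *T. media*, 459, 356 and 554 TPM in *T. mairei* and 841, 729 and 834 TPM in *T. cuspidata*. Its log2 fold change was 1.29 ± 0.35 for *T. media* vs. *T. mairei*, where the TPM overlapped, −0.64 ± 0.30 for *T. media* vs. *T. cuspidata* and −1.93 ± 0.36 for *T. mairei* vs. *T. cuspidata*. On log2(TPM + 1), LHCB3 was not called, at 0.55 for *T. media* minus *T. mairei* and −0.83 for *T. mairei* minus *T. cuspidata*.

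**Figure D4:**
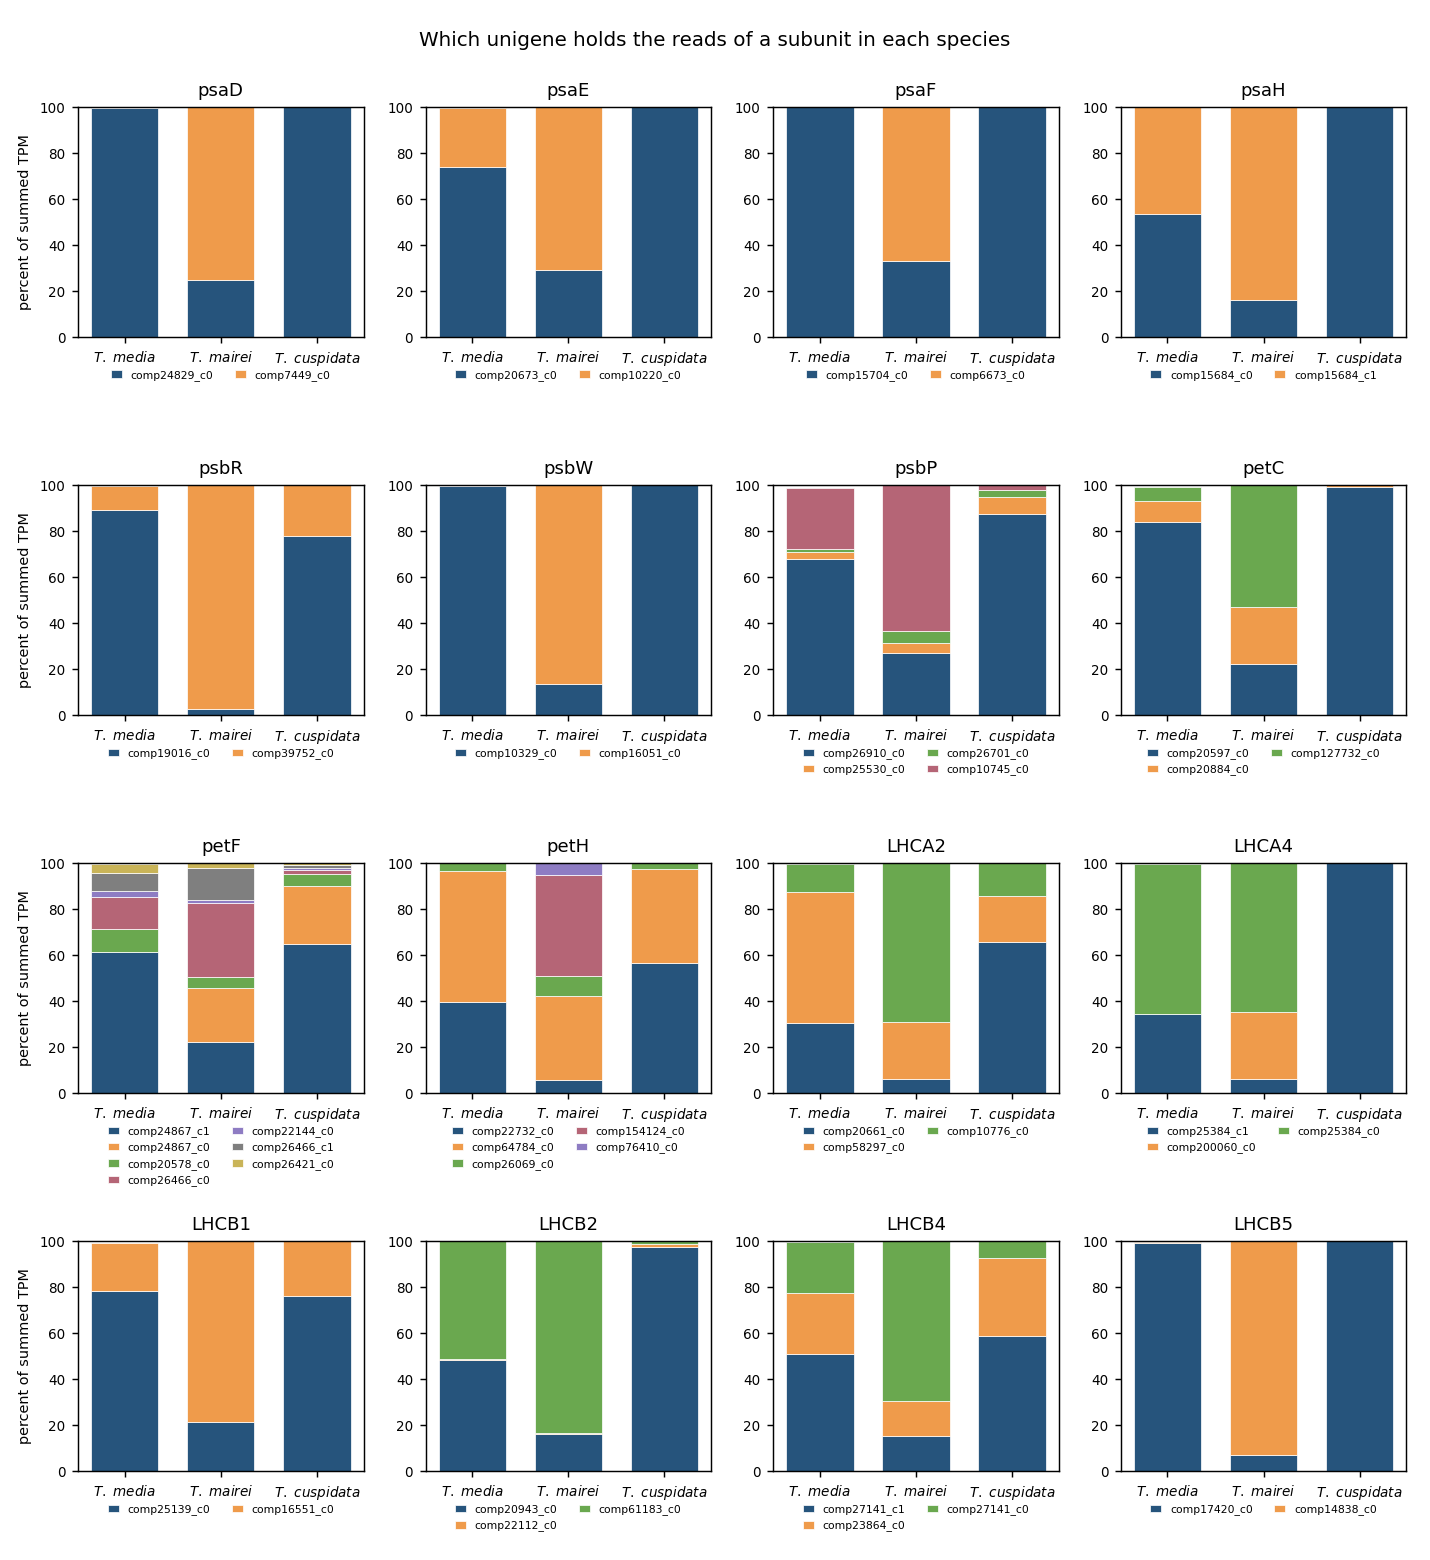
Percent of the summed mean TPM of 16 subunits held by each unigene in *T. media*, *T. mairei* and *T. cuspidata*, as stacked bars from 0 to 100, leaving out unigenes under 1% in every species. In 20 of the 50 subunits the leading unigene was not the same in all 3 species; the leading unigene of *T. mairei* differs from that of *T. cuspidata* in each of the 16 panels.

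Whether another unigene of the subunit carried the reads was then asked of every missing unigene. A unigene was taken as missing in a species when it had less than 1 TPM in all its libraries and a mean of at least 10 TPM in the other species of the comparison. Its subunit was taken as carried when the summed mean TPM was at least 0.5 of that of the other species. There were 34 such cases of 20 unigenes in 15 subunits, and the subunit was carried in 31 of them. Of the 14 unigenes of 11 subunits that *T. mairei* had and *T. cuspidata* lacked, all 14 were carried, and the *T. cuspidata* sum was 1.76 to 24.1 times that of *T. mairei*, with a median of 2.56. Of the 7 that *T. mairei* had and *T. media* lacked, all 7 were carried, at 1.75 to 17.3 times. Of the 8 that *T. media* had and *T. cuspidata* lacked, all 8 were carried, at 0.755 to 2.42 times. These 14, 7 and 8 cases could only come out as carried, since every nuclear-coded subunit met the limit in these directions. Its mean TPM ratio was at least 1.76 for *T. cuspidata* over *T. mairei* and at least 1.47 for *T. media* over *T. mairei*. For *T. media* over *T. cuspidata* it was at most 1.33. The counts thus show that no subunit was lost from *T. cuspidata* with its missing unigene, but not that another unigene took over the reads. The 14 unigenes held 19.8, 19.9 and 20.1% of the members' TPM in the *T. mairei* libraries and 4.86 to 5.16% in those of *T. media*.

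The 3 cases that were not carried had different backgrounds. The ferredoxin unigene comp24867_c0, missing in *T. media* against *T. cuspidata*, is described above. The LHCB2 unigene comp22112_c0 had 2.74, 7.06 and 6.99 TPM in *T. media*, 0.730, 0.760 and 0.880 TPM in *T. mairei* and 50.4, 47.1 and 45.6 TPM in *T. cuspidata*, where it made up 1.40% of LHCB2. The LHCB2 sum of *T. mairei* was 0.101 of that of *T. cuspidata*, and this ratio rested on its other unigenes. The LHCB1 unigene comp265_c0, missing in *T. mairei* against *T. media*, had 48.8 TPM in *T. media* replicate 1 and no read in any other library, so that this case rests on that library alone. comp25559_c0 of LHCB3 had 71.5 TPM in *T. media* replicate 1 and less than 1 TPM elsewhere, so that 4 of the 34 cases come from unigenes found only in that library. Without *T. media* replicate 1, there were 31 cases, of which 28 were carried, and between *T. media* and *T. cuspidata* 6 of 7 were carried.

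Whether the unigenes of a subunit are separate genes, alleles or species-specific versions of the same gene, or pieces of it, was not tested, since no sequence was used. Some pairs carry the same component number of the assembly, such as those of psaH, LHCA4, LHCB4 and ferredoxin.

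The 13 subunits of plastid genes, with 17 unigenes, had smaller fold changes at the median than the nuclear-coded ones. They summed to 149.3 to 348.2 TPM in *T. media*, 290.0 to 628.1 TPM in *T. mairei* and 415.5 to 547.7 TPM in *T. cuspidata*. In 8 of the 13, the mean TPM was highest in *T. cuspidata* and lowest in *T. mairei*, the order of the nuclear-coded subunits. The log2 fold change was below 0 for all 13 in *T. media* vs. *T. cuspidata* and for 9 of 13 in *T. mairei* vs. *T. cuspidata*, with medians of −0.70 and −0.18. psbA, the D1 protein of photosystem II, made up most of it with 117, 288 and 259 TPM in *T. media*, 571, 261 and 535 TPM in *T. mairei* and 444, 392 and 343 TPM in *T. cuspidata*. In psbA, *T. mairei* overlapped with both other species, and no comparison passed the test. psaA and psaC, core proteins of photosystem I, were not called either. Of the 13 sums, the test called 1 in *T. media* vs. *T. mairei*, psbK, 1 in *T. media* vs. *T. cuspidata*, atpA, and 2 in *T. mairei* vs. *T. cuspidata*, psaB and atpB. The calls were not stable. That of psbK, lower in *T. media* with 2.06, 0.910 and 4.34 TPM against 7.04, 5.99 and 13.2 TPM in *T. mairei*, was lost when *T. media* replicate 1 or 2, *T. mairei* replicate 1 or 2 or *T. cuspidata* replicate 2 was left out. That of atpA was lost without *T. cuspidata* replicate 1 or any counted library of the other species, that of psaB with a replicate block, with the reads recovered for *T. mairei* replicate 3, without *T. media* replicate 3, *T. mairei* replicate 2 or *T. cuspidata* replicate 2, and that of atpB without *T. mairei* replicate 1 or 2 or *T. cuspidata* replicate 1. Each of these 4 subunits stayed below 25 TPM in every library, and poly(A) selection bears on all of them.

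Other genes of the green tissue were set beside the members. Of 28 chlorophyll synthesis unigenes, 27 passed the filter. Between *T. media* and *T. mairei*, 9 were higher and 5 lower in *T. media*, where 20.8% and 23.5% of all unigenes were called, and limma on TPM called 15 to 16 higher. Between *T. media* and *T. cuspidata*, 1 was higher and 6 were lower in *T. media* (15.7% and 10.1% of all unigenes), and the 6 became 3 without *T. media* replicate 1. Between *T. mairei* and *T. cuspidata*, 3 were higher and 14 lower in *T. mairei* (27.8% and 21.5% of all unigenes). Summed, they had 1070 ± 103 TPM in *T. media*, 923 ± 50.7 TPM in *T. mairei* and 1760 ± 166 TPM in *T. cuspidata* (SD, n = 3). The log2 fold change of these 27 had a median of −1.12 in *T. mairei* vs. *T. cuspidata*, beside −2.50 for the nuclear-coded member unigenes tested. CHLG, chlorophyll synthase, had 51.8, 64.9 and 53.9 TPM in *T. media*, 9.02, 8.88 and 10.49 TPM in *T. mairei* and 60.1, 76.5 and 72.8 TPM in *T. cuspidata*. HEMA, glutamyl-tRNA reductase at the entry of the pathway, ran the other way with 33.5, 48.5 and 41.9 TPM in *T. media*, 153, 205 and 151 TPM in *T. mairei* and 88.4, 81.2 and 79.9 TPM in *T. cuspidata*. The ortholog of POR, the light-dependent reductase, also held unigenes named TIC32. Its sum was lowest in *T. media*, with 214, 247 and 254 TPM in *T. media*, 439, 396 and 459 TPM in *T. mairei* and 626, 638 and 582 TPM in *T. cuspidata*. Its longest unigene, comp27090_c0, named POR1, was instead lowest in *T. mairei*, with 68.2, 82.5 and 83.55 TPM in *T. media*, 38.9, 43.75 and 30.9 TPM in *T. mairei* and 257, 213 and 189 TPM in *T. cuspidata*. Like the sum, comp49911_c0, also named POR1, was lowest in *T. media*. It had 68.1, 94.5 and 101 TPM in *T. media*, 158, 118 and 164 TPM in *T. mairei* and 287, 336 and 306 TPM in *T. cuspidata*. The shorter comp10467_c0, named PORB, had 147, 138 and 169 TPM in *T. mairei* and at most 1.43 TPM in the other species.

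The small subunit of Rubisco, RBCS, had 10096, 14365 and 11834 TPM in *T. media*, 1042, 763 and 1440 TPM in *T. mairei* and 11150, 12947 and 12606 TPM in *T. cuspidata*. *T. media* and *T. cuspidata* overlapped in RBCS, unlike in the sum of the members. PRK and SBPASE, enzymes of the Calvin cycle, and the plastid GAPDH were also lowest in *T. mairei*. RCA, Rubisco activase, matched by gene name only, had 645, 733 and 631 TPM in *T. media*, 706, 473 and 811 TPM in *T. mairei* and 12.6, 22.2 and 13.7 TPM in *T. cuspidata*, and activase under another name would not be counted. Of 8 wood markers 4 were found and summed to 10.8 to 17.2 TPM in *T. media*, 36.1 to 55.6 TPM in *T. mairei* and 10.4 to 21.3 TPM in *T. cuspidata*. The wood markers did not run together. CESA4, a unigene with an effective length of 46.22 bases, gave 33.2 of the mean of 47.7 TPM in *T. mairei*, against 2.19 TPM in *T. media* and 1.26 TPM in *T. cuspidata*. CESA7 averaged 0.307 TPM in *T. media*, 0.840 TPM in *T. mairei* and 7.97 TPM in *T. cuspidata*, XCP2 averaged 5.46 TPM in *T. media*, 3.81 TPM in *T. mairei* and 8.10 TPM in *T. cuspidata*, and LAC17 was at 0 in *T. cuspidata*. Of 4 epidermis markers 2 were found and summed to 100.7 to 130.8 TPM in *T. media*, 107.1 to 118.1 TPM in *T. mairei* and 26.6 to 34.4 TPM in *T. cuspidata*, and none of 4 phloem markers was found by name. The part of the tissue composition of the twigs in the differences of the members was not tested.

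**Figure D5:**
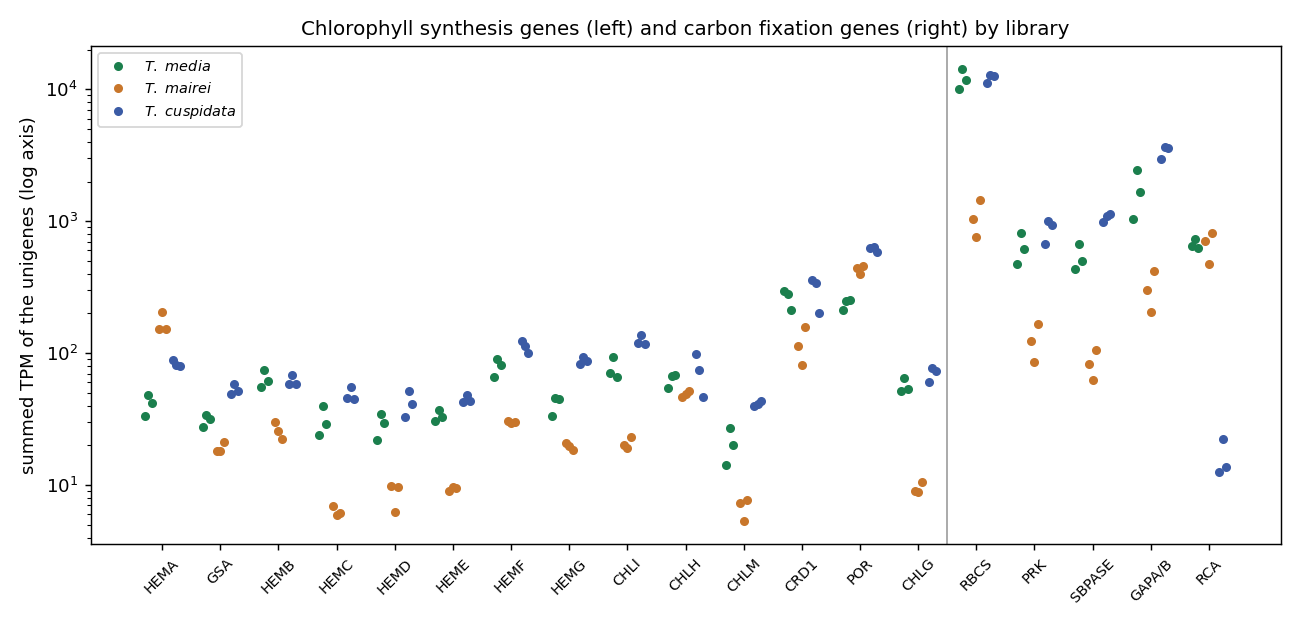
Summed TPM (log axis) of 14 chlorophyll synthesis genes (left) and 5 carbon fixation genes (right) in every library of *T. media* (green), *T. mairei* (orange) and *T. cuspidata* (blue). *T. mairei* is lowest in most of them, but highest in HEMA and above *T. media* in the sum of the POR ortholog. RCA is near 16.2 TPM in *T. cuspidata* against 670 TPM in *T. media* and 663 TPM in *T. mairei* on average.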

How the data were processed

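Twigs of 3 species were sequenced in 3 libraries each. The authors assembled all reads with Trinity, and the tool that counted reads is not given in the sources used here. Per the file headers, 8 libraries were deposited with expected counts and their TPM, while *T. mairei* replicate 3 was deposited as TPM and RPKM. Annotations are theirs, and 1 file holds 1 library. No sequence of the unigenes was used.

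After rounding, the expected counts entered edgeR 4.0.16 (R 4.3.3) with TMM factors of 0.933 to 1.157, filterByExpr by species (32624 unigenes left) and 1 mean per species, and quasi-likelihood p values were adjusted by Benjamini-Hochberg. For subunits, counts were summed per KEGG ortholog over the whole table, unigenes without an ortholog staying single (26497 left), and tested alike. The fit holds 2 *T. mairei* libraries. The scripts were tested on simulated data. For the 8 libraries with counts, RPKM were calculated from these and the deposited effective lengths. Reads of *T. mairei* replicate 3 were recovered from RPKM for a further setting: among 1854 low values, 96.5% came out whole to within 0.1 reads.

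Unigenes named by rule are the 5 largest and 5 smallest fold changes among called members of at least 10 TPM in a species, unigenes that lead a subunit where the leader differs between species, missing unigenes whose subunit was not carried, those of psaH, and the highest of each role group. Some others are named outside this rule, among them comp107469_c0, comp25559_c0, comp20578_c0 and comp26466_c1. Members and lists were chosen with earlier results of these data known. The alternatives comprised DESeq2 1.42.0, limma 3.58.1 on log2(TPM + 1) and log2(TPM + 0.1), other scalings and filters, each library left out and a replicate block.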

Additional observations from a re-analysis of the deposited data

How the results depend on the processing

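Of the values of single subunits under the alternatives, 2860 kept direction and side of the threshold, 43 gained a call, 82 lost it and 3 reversed. For single unigenes, 3067 kept both, 65 gained and 50 lost a call. The 3 reversed values were the LHCA4 sum in *T. media* vs. *T. cuspidata*, 0.35 in limma on log2(TPM + 1), with and without filter, and on log2(TPM + 0.1). Leaving out the unigenes seen only in *T. media* replicate 1, an alternative chosen after seeing the data, left 39 subunit sums called between *T. mairei* and *T. cuspidata*, 32 between *T. media* and *T. mairei* and 21 between *T. media* and *T. cuspidata*.

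Subunit sums lower in *T. media* than in *T. cuspidata* were 21, 13 with library sizes only and 9 to 25 with 1 library left out, the 9 without *T. media* replicate 1. Member unigenes lower in *T. media* in this comparison ranged over 21 to 42 with 1 library left out. The 1 subunit sum lower in *T. media* than in *T. mairei* became 2 in DESeq2 and in each of the 3 limma settings, 3 with recovered reads, 0 with library sizes only or a mean count of at least 50, and 0 to 1 with 1 library left out. With recovered reads, 1 sum, psbK, was higher in *T. mairei* than in *T. cuspidata*. Sums higher in *T. media* than in *T. mairei* numbered 28 to 33, and sums lower in *T. mairei* than in *T. cuspidata* 37 to 39, with 1 library left out.

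Chlorophyll synthesis unigenes called in *T. media* vs. *T. cuspidata* were 4 with library sizes only and in limma on log2(TPM + 1) with or without filter, and 4 to 8 with 1 library left out. Those lower in *T. media* were 3 with library sizes only and 3 to 7 with 1 library left out, and those higher in *T. media* were 0 in limma on log2(TPM + 1) with or without filter. Those higher in *T. media* than in *T. mairei* were 15, 16 and 15 in limma on log2(TPM + 1), on log2(TPM + 0.1) and without filter. With unigenes of an effective length of at least 100 bases only, 5 missing unigenes were carried in *T. media* vs. *T. cuspidata*.

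The log2 ratio of the members' summed TPM was 1.69 in *T. media* vs. *T. mairei* with TMM factors, and −2.63 with TMM factors and −2.60 in RPKM instead of −3.27 in *T. mairei* vs. *T. cuspidata*. For nuclear-coded members it was 1.77 in *T. media* vs. *T. mairei* with TMM factors, and −2.71 with TMM factors and −2.68 in RPKM in *T. mairei* vs. *T. cuspidata*. On log2(TPM + 1), the median of all unigenes lay at 0.11 in *T. media* vs. *T. cuspidata*, 0.61 in *T. media* vs. *T. mairei* and −0.41 in *T. mairei* vs. *T. cuspidata*. TPM ratios are thus relative to these shifts. The cause of these changes was not tested.

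Libraries with the same replicate number did not deviate together over the table as a whole, with correlations of −0.054 to 0.038. Such values cannot exclude a pairing that touches only some unigenes, and the labels do not say what the numbers mark. With a replicate block, 38 subunit sums and 74 member unigenes were called between *T. mairei* and *T. cuspidata*, 31 and 61 between *T. media* and *T. mairei*, and 20 and 42 between *T. media* and *T. cuspidata*. *T. mairei* replicate 3 holds no counts and could not be left out of the count fits.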
